A study of Mus musculus with 5 samples.

Results

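The genes examined here encode the exchangeable subunits of the neural BAF complex, the mammalian SWI/SNF chromatin remodeler. They were taken by name and are 10 of the 25415 genes in the deposited tables: the ATPases Smarca4 and Smarca2, the actin-related subunits Actl6a and Actl6b, the BAF45 genes Phf10, Dpf2, Dpf1 and Dpf3, and Ss18 with its paralog Ss18l1. All 10 had entries in every sample, though some entries were 0. The 10 genes comprised 22 RefSeq transcripts, of which 3 were at 0 in every sample.

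RNA was sequenced from primary neural stem cells (NSCs) in 2 replicates and from STO cells in 3 replicates. The NSCs came from embryonic mouse cortex (E12.5), had been grown for 5-8 passages, and were kept proliferating as a monoculture on poly-l-ornithine and laminin with EGF and bFGF at 20 ng/ml each, heparin and 2% B27. STO cells are an established line of SIM mouse embryonic fibroblasts that resists thioguanine and ouabain. They were used after more than 30 passages and were grown in high-glucose DMEM with 10% FBS. The labels give C57BL/6 as the strain of both and name no transgene or knockdown, and no source used here says whether replicates were separate cultures, so p-values measure only the spread between these samples. No neurons were sequenced, so the replacement of subunits at neuronal differentiation was not itself sampled, and STO cells serve as the non-neural comparison.

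BAF complexes use ATP to move or evict nucleosomes and are built from a core plus subunits that come as alternative paralogs. In dividing neural progenitors the complex is known to carry ACTL6A (BAF53a), PHF10 (BAF45a) or DPF2 (BAF45d), and SS18. When progenitors leave the cell cycle and become neurons, these are replaced by ACTL6B (BAF53b), DPF1 (BAF45b) or DPF3 (BAF45c), and SS18L1 (CREST). SMARCA4 (BRG1) and SMARCA2 (BRM) are alternative motors that do not share a complex and are not tied as strictly to either state.

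Levels are FPKM, fragments per kilobase of transcript scaled to the mapped fragments of the library, which can be compared between genes because length is divided out. The values of all transcripts summed to between 385485 and 446393 FPKM in a sample, and the deposited confidence intervals implied about 15200000 to 22300000 fragments per library. Most markers went with the labels. All 8 neural stem cell markers had a mean of at least 1 FPKM in NSCs and none did in STO cells, where Sox2, Pax6, Olig2 and Fabp7 were listed at 0. Such a mean was found for 8 of 9 fibroblast markers in STO cells and for 1 in NSCs. The latter was Prrx1, named after its values were seen, with 5.96 and 5.34 FPKM in NSCs and 57.3 to 66.4 FPKM in STO cells. Nes averaged 173 FPKM in NSCs and 0.052 in STO cells, and Col1a1, Col1a2 and Col3a1 averaged 254, 364 and 339 FPKM in STO cells and at most 0.17 in NSCs. Differences between STO cells and NSCs are log2 fold changes on log2(FPKM + 1), STO minus NSC, with standard errors (SE) and adjusted p-values from limma fitted over 12293 genes. Because of the added 1, changes of weakly expressed genes come out too small. In these bulk samples, fewer cells of a type and less RNA per cell cannot be told apart.

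NSCs carried the BAF45 genes of both states but almost no Actl6b. Dpf1 and Dpf3 together made up 39.3% ± 4.01 (SD, n = 2) of the BAF45 FPKM in NSCs and 6.22% ± 0.25 (SD, n = 3) in STO cells, while Actl6b made up 1.15% ± 0.90 (SD, n = 2) of the ACTL6 pair in NSCs and was listed at 0 in STO cells. Of the 9 genes that reached the filter of a mean of 1 FPKM in either cell type, 5 were lower in STO cells (Smarca4, Dpf1, Dpf3, Ss18 and Ss18l1), 3 were higher (Smarca2, Dpf2 and Phf10), and Actl6a did not pass the threshold of an adjusted p of 0.05. Actl6b did not reach the filter, and Dpf3 reached it through NSCs alone, so the filter set the direction of Dpf3. Such calls were common in this comparison of unlike cell types: 85.6% of all tested genes were called, 43.7% as lower and 41.9% as higher in STO cells. Dpf1 and Dpf3 were the subunits that also differed by at least 1 in log2 fold change, a size reached by 38.4% of tested genes (21.3% lower, 17.1% higher in STO cells). The median absolute log2 fold change was 0.56 for the 9 subunits and 0.74 for all genes tested.

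**Figure D1:**
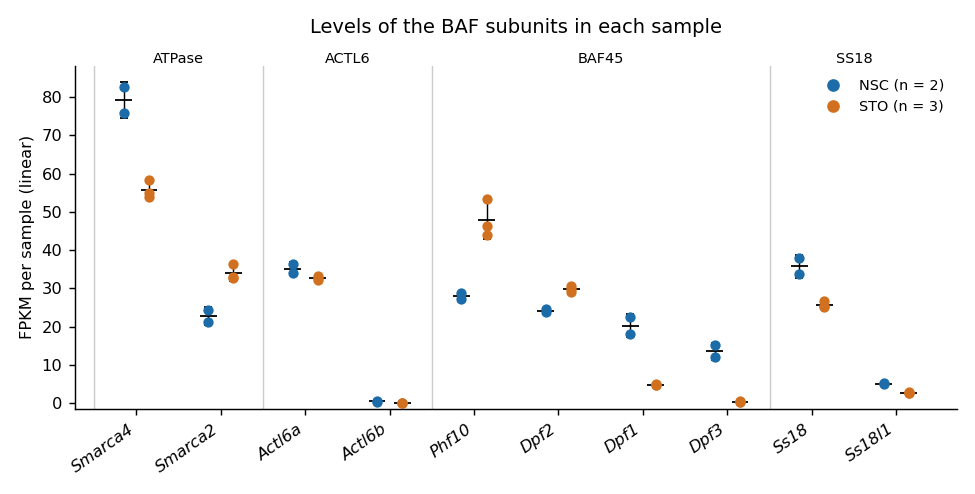
FPKM (linear y axis) of each of the 10 subunit genes in the 2 NSC samples (blue) and the 3 STO samples (orange), with the mean as a horizontal line and the SD as the error bar. Dpf1 and Dpf3 stand at 11.9 to 22.4 FPKM in NSCs and at or below 4.88 in STO cells, whereas Actl6a lies between 32.1 and 36.3 FPKM in all samples and Actl6b lies near 0.

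Smarca4 encodes BRG1, the ATPase that neural progenitors are known to need. It had 75.9 and 82.6 FPKM in NSC replicates 1 and 2 and 53.8, 58.3 and 55.0 FPKM in STO replicates 1, 2 and 3. It was the highest of the 10 subunits in either cell type, and the samples of the groups did not overlap. The log2 fold change was -0.50 (SE 0.064, adjusted p = 0.00040 by limma, n = 2 and 3).

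Smarca2 encodes BRM, the alternative ATPase. It went the other way, with 24.4 and 21.2 FPKM in NSCs and 32.6, 36.3 and 33.1 FPKM in STO cells. Every STO sample was above both NSC samples, with a log2 fold change of 0.56 (SE 0.081, adjusted p = 0.00070 by limma). Within a sample, Smarca4 exceeded Smarca2 by 3.11 and 3.90 times in NSCs and by 1.61 to 1.66 times in STO cells. With all its transcripts counted, Smarca2 therefore made up 22.4% ± 2.76 (SD, n = 2) of the summed FPKM of both ATPase genes in NSCs. In STO cells it made up 37.9% ± 0.42 (SD, n = 3). The summed level of both genes was 102 ± 2.54 FPKM in NSCs and 89.7 ± 4.36 FPKM in STO cells. Smarca2 lies on chromosome 19 (mm9, 26679650 to 26852811), where another transcript, 4931403E22Rik, shares part of the locus and was listed at 0 in every sample.

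The Smarca2 locus holds a full-length transcript (NM_011416) and 2 short ones that begin inside the gene, so a level summed over the gene mixes them. The Smarca2 shares and the ratios to Smarca4 given above count the short ones too. Set against the same Smarca4 sum, full-length Smarca2 alone would take a smaller share in every sample. Whether the short ones encode a working ATPase was not tested. The full-length transcript had 11.8 and 14.0 FPKM in NSCs and 17.2, 18.6 and 18.1 FPKM in STO cells, which is 1.39 times as much on average in STO cells and without overlap. The short transcripts took 51.6% and 34.0% of the Smarca2 FPKM in NSC replicates 1 and 2 and 47.4%, 48.9% and 45.3% in STO replicates 1, 2 and 3. The NSC values thus fell on either side of the STO values. Of the short transcripts, NM_026003 was given 6.84 FPKM in NSC replicate 1 and 0 in the other samples, so its assignment by Cufflinks rests on that library.

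Actl6a, the actin-related subunit of progenitor and most non-neural BAF complexes, was nearly level across the cell types. It had 33.9 and 36.3 FPKM in NSCs and 32.7, 32.1 and 33.3 FPKM in STO cells. The ranges lay close together without overlapping, and groups that did not overlap were common, being found for 89.9% of tested genes. The log2 fold change was -0.099 (SE 0.054, 95% interval -0.23 to 0.032, adjusted p = 0.13 by limma). The value did not settle a direction: without NSC replicate 1 it was -0.15 (adjusted p = 0.033), and with all samples scaled to the same sum of FPKM it was 0.070 (adjusted p = 0.23), the adjusted p ranging from 0.033 to 0.27 over 12 alternatives.

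Actl6b, the neuron-restricted counterpart, had 0.62 and 0.19 FPKM in NSC replicates 1 and 2 and was listed at 0 in all 3 STO samples. The intervals deposited with these values imply 30.0 and 9.59 fragments in the NSC libraries, against 2101 and 2465 for Actl6a. Within NSCs, Actl6a exceeded Actl6b by 55.1 and 194 times. Actl6b was the lowest of the 10 subunits in both cell types, and no difference between the cell types was tested for it at the filter used. Without the filter its adjusted p was 0.021 by limma, and no fold is given against samples listed at 0.

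The start regions of this pair and of the BAF45 genes Dpf1 and Dpf3 are shown because these neuronal paralogs contrasted most in NSCs, where Dpf1 and Dpf3 were abundant and Actl6b was not. Each is the 250 bases before the RefSeq start, 5′ to 3′ on the gene's strand, taken from RefSeq windows of GRCm38.p6. Each was found once on its own chromosome in mm9, at the mm9 position given. The Actl6b window ends 9 bases short of the start of its deposited locus. Capitals mark CCAAT and its reverse complement ATTGG, the CCAAT box.
Actl6a, chr3:32607218-32607467, plus strand: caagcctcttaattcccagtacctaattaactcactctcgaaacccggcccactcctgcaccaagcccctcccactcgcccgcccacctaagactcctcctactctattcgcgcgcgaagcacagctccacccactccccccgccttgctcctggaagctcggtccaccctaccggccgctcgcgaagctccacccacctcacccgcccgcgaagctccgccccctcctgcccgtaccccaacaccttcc
Actl6b, chr5:137994524-137994773, plus strand: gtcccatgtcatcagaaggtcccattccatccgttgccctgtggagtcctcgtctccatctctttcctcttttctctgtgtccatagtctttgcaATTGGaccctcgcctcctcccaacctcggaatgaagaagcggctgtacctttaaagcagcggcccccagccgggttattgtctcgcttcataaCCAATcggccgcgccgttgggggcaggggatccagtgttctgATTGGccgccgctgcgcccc
Dpf1, chr7:30088774-30089023, plus strand: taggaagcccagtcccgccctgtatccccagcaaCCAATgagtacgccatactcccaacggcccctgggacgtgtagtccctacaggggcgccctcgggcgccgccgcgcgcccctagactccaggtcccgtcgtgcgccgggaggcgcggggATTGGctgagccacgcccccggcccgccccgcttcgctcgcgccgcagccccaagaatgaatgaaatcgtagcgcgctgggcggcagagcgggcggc
Dpf3, chr12:84828687-84828936, minus strand: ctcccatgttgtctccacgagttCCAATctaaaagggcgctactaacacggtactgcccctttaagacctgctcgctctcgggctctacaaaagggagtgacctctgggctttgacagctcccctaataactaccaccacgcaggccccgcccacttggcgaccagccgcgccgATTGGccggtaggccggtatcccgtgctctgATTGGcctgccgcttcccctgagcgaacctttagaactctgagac

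The CCAAT box occurs 3 times before Actl6b, 3 times before Dpf3 and 2 times before Dpf1, on either strand, and not in the Actl6a window. Of the 9 subunits with a window in the table (Ss18 has none), Dpf2 holds 1 such box, and Smarca2, Smarca4, Phf10 and the neuronal paralog Ss18l1 hold none. Among all 32851 windows of this length, 33.8% hold the CCAAT box and 10.1% hold it at least 2 times. GGGCGG, the GC box, was found in 7 of the 9 windows (32.7% of all windows), and neither TATAAA, the TATA box (12.4% of all), nor TTCAGCACC, the first part of the element bound by REST (0.301% of all), in any, all searched on both strands. The windows of these 9 genes hold 15 to 51 CpG dinucleotides, against a median of 6 over all windows, with 15 in Actl6b and 31 in Dpf1. Of all windows, 27.3% hold as many as Actl6b or more, 25.4% as Dpf3, 19.7% as Actl6a and 5.19% as Dpf1. These counts describe letters in a window and are not binding sites.

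The BAF45 genes encode double PHD finger proteins that read modified histone tails, and complexes carry them as alternatives. Phf10, one of the progenitor genes, had 27.1 and 28.7 FPKM in NSCs and 46.4, 43.9 and 53.3 FPKM in STO cells. All STO samples were higher, with a log2 fold change of 0.75 (SE 0.090, adjusted p = 0.00028 by limma). Both of its transcripts were higher on average in STO cells, by 1.90 times for NM_024250 and 1.30 times for NM_001360983. The locus on chromosome 17 (mm9, 15082000 to 15098237) shares bases with 1600012H06Rik, which had 10.4 and 10.1 FPKM in NSCs and 17.8, 17.2 and 12.7 FPKM in STO cells, so reads of one may have been given to the other, which was not tested.

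Dpf2, which is expressed in most tissues, had 24.5 and 23.8 FPKM in NSCs and 30.6, 29.0 and 29.9 FPKM in STO cells. The difference was small but larger than the spread, with a log2 fold change of 0.29 (SE 0.051, adjusted p = 0.0017 by limma). As split by Cufflinks, NM_011262 was its main transcript in both cell types, with 79.5% and 70.1% of the gene in NSC replicates 1 and 2. NM_001291078 had 5.01 and 7.12 FPKM in NSC replicates 1 and 2 and was listed at 0 in all STO samples, where NM_011262 took the whole of the gene. NM_011262 alone had 18.1 ± 1.97 FPKM (SD, n = 2) in NSCs and 29.8 ± 0.81 FPKM (SD, n = 3) in STO cells.

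Dpf1, a neuronal BAF45 gene, had 22.4 and 18.1 FPKM in NSCs and 4.73, 4.74 and 4.88 FPKM in STO cells. NSCs held 4.24 times the STO level on average, and the log2 fold change was -1.87 (SE 0.091, adjusted p = 3.2e-06 by limma). In NSCs it stood close to Dpf2, at 0.91 and 0.76 of its level, whereas in STO cells it was 0.15 to 0.16 of Dpf2. It is quantified from a single transcript, with 1420 to 1597 implied fragments per NSC library and 232 to 380 per STO library.

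Dpf3, the other neuronal BAF45 gene, showed the widest gap of the 10 subunits among those above 0 in both cell types. It had 15.1 and 11.9 FPKM in NSCs and 0.50, 0.23 and 0.36 FPKM in STO cells. NSCs held 37.2 times the STO level on average, and the log2 fold change was -3.41 (SE 0.12, adjusted p = 7.3e-07 by limma). The STO values rest on 7.96 to 17.8 implied fragments per library. In NSCs most of it came from NM_001267626, with 13.5 and 9.64 FPKM, while NM_001267625, whose locus runs further at the 3′ end, had 1.67 and 2.29 FPKM and was listed at 0 in STO cells. The remaining transcript, NM_058212, was at 0 in every sample.

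The summed BAF45 level was close in the cell types, at 89.2 and 82.6 FPKM in NSCs and 82.2, 77.8 and 88.4 FPKM in STO cells, and these ranges overlapped. What differed was how the sum was divided. In NSCs Phf10 took 32.6% ± 3.04, Dpf2 28.2% ± 0.97, Dpf1 23.5% ± 2.22 and Dpf3 15.7% ± 1.80 (SD, n = 2). In STO cells Phf10 took 57.7% ± 2.25, Dpf2 36.1% ± 1.99, Dpf1 5.79% ± 0.29 and Dpf3 0.44% ± 0.16 (SD, n = 3). The share of the neuronal genes Dpf1 and Dpf3 was 42.1% and 36.4% in the NSC samples and 5.93% to 6.38% in the STO samples.

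**Figure D2:**
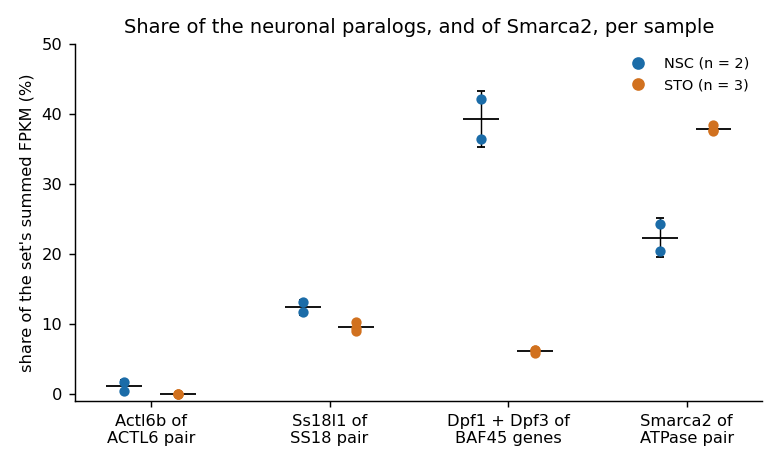
Share of the summed FPKM of each subunit set (y axis, %) taken by Actl6b, Ss18l1, Dpf1 with Dpf3, and Smarca2, in the 2 NSC samples (blue) and the 3 STO samples (orange), with mean and SD. The BAF45 share lies at 36.4% and 42.1% in NSCs and near 6% in STO cells. The Smarca2 share, which counts its short transcripts, is the reverse with 37.6% to 38.4% in STO cells, and the Actl6b share stays below 2%.

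Most neuronal markers were lower in STO cells. With only NSCs and STO cells compared, every gene lower in STO cells shares the direction of Dpf1 and Dpf3. Of 12 neuron markers, 9 had a mean of at least 1 FPKM in NSCs and 3 in STO cells, and their summed level was 174 to 177 FPKM in NSCs, most of it Map2, and 30.9 to 34.0 FPKM in STO cells, most of it Nefl. Of the 10 that reached the filter, 8 were lower and 1 (Nefl) higher in STO cells, against 43.7% lower and 41.9% higher over all genes tested. Of these, only Map2 and Tubb3 had a mean of at least 1 FPKM in both cell types. The others entered only through the cell type where they were higher. Their direction was thus set by the filter, and the counts do not test a trend. The higher one, Nefl, a neurofilament gene named after its values were seen, had 0.76 and 0.61 FPKM in NSCs and 17.9, 19.5 and 21.2 FPKM in STO cells (28.5 times as much on average, adjusted p = 1.0e-07 by limma). Tubb3 had 9.25 and 8.14 FPKM in NSCs and 7.84 to 8.57 FPKM in STO cells, Snap25 had 3.03 and 3.22 FPKM in NSCs, and Rbfox3 had 0.62 and 0.41 FPKM in NSCs, while Snap25 and Rbfox3 were listed at 0 in STO cells. Astrocyte markers (5 of 5 with a mean of at least 1 FPKM, summed level 81.3 to 81.5 FPKM against 24.9 to 29.3 in STO cells) and oligodendrocyte markers (4 of 5, 129 to 132 FPKM against 0.98 to 1.14) were also present in NSCs, and no microglia marker of 5 reached 1 FPKM there, with Aif1 and Cx3cr1 listed at 0. In NSCs Gfap averaged 16.4, Aqp4 1.72 and Mbp 85.8 FPKM, and none of these reached 1 FPKM on average in STO cells. Of the astrocyte markers 4 were lower in STO cells, and these reached the filter through NSCs alone. Gja1, a gap junction gene that fibroblasts also express and that was named after its values were seen, was higher. It made up nearly all of the STO sum, with 10.9 and 10.1 FPKM in NSCs and 24.6 to 29.0 FPKM in STO cells (log2 fold change 1.26, SE 0.081, adjusted p = 1.3e-05 by limma). Of the 5 microglia markers, 1 (Tmem119) had a mean above 1 FPKM in STO cells, where the summed level of the microglia markers was 9.75 to 10.1 FPKM. Nearly all of that sum was Tmem119, with 9.66 FPKM on average, and the next highest, Csf1r, averaged 0.17 FPKM. The part of neurons or glia in the subunit levels was not tested.

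Ss18, which encodes a core partner of the ATPase in progenitor complexes, had 37.9 and 33.7 FPKM in NSCs and 25.1, 25.4 and 26.8 FPKM in STO cells. The groups did not overlap, with a log2 fold change of -0.46 (SE 0.068, adjusted p = 0.00081 by limma). The call was lost when the gene was represented by its highest transcript, NM_001161369, with a log2 fold change of -0.082 and an adjusted p of 0.47 (0.00086 to 0.47 over 12 alternatives). That transcript had 27.4 and 24.9 FPKM in NSCs and 21.9, 25.4 and 26.8 FPKM in STO cells, which overlap, and most of the difference in the sum lay in NM_009280, with 10.6 and 4.73 FPKM in NSCs and 3.17, 0 and 0 FPKM in STO cells, and in NM_001161370, with 4.07 FPKM in NSC replicate 2 and 0 elsewhere.

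Ss18l1, or CREST, a calcium-responsive factor needed for dendrite growth in neurons, had 5.03 and 5.14 FPKM in NSCs and 2.88, 2.67 and 2.64 FPKM in STO cells. NSCs held 1.86 times the STO level, without overlap, and the log2 fold change was -0.70 (SE 0.054, adjusted p = 3.1e-05 by limma). Both members of the pair were thus lower in STO cells. The share of Ss18l1 in the pair was 11.7% and 13.2% in NSCs and 9.0% to 10.3% in STO cells, and Ss18 exceeded it by 6.56 to 7.55 times in NSCs and by 8.70 to 10.1 times in STO cells.

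**Figure D3:**
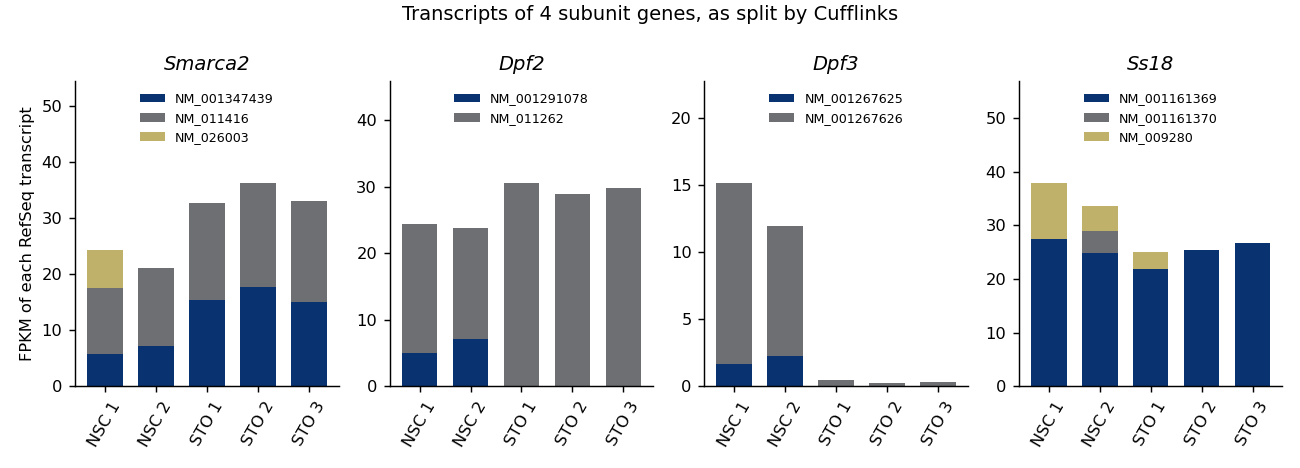
FPKM of each RefSeq transcript (stacked bars, y axis) of Smarca2, Dpf2, Dpf3 and Ss18 in each sample, leaving out transcripts at 0 in all samples. NM_001291078 of Dpf2 is present in the 2 NSC samples and at 0 in the STO samples, and NM_026003 of Smarca2 appears in NSC replicate 1 alone.

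Ordered by level in NSCs, Smarca4 (79.2 FPKM on average) was followed by Ss18 (35.8), Actl6a (35.1), Phf10 (27.9), Dpf2 (24.2), Smarca2 (22.8), Dpf1 (20.3), Dpf3 (13.5), Ss18l1 (5.08) and Actl6b (0.40). The sample ranges of Ss18 and Actl6a overlapped, as did those of Dpf2 with Smarca2 and of Smarca2 with Dpf1. In STO cells the order was Smarca4 (55.7 FPKM), Phf10 (47.9), Smarca2 (34.0), Actl6a (32.7), Dpf2 (29.8), Ss18 (25.8), Dpf1 (4.78), Ss18l1 (2.73), Dpf3 (0.36) and Actl6b (0), with overlapping ranges for Smarca2 and Actl6a. The 4 neuronal paralogs were the 4 lowest of the 10 by mean in both cell types.

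Of 21 other subunits, all of which reached the filter, 10 were lower and 8 higher in STO cells and 3 did not pass the threshold, which is close to the shares called over all genes tested (85.6%, with 43.7% lower and 41.9% higher), with a median log2 fold change of -0.063 against -0.023 over all genes tested. Of the 3 BAF60 paralogs, Smarcd1 and Smarcd3 were lower and Smarcd2 was higher in STO cells. Smarcd1, which encodes the BAF60a subunit, had 46.4 and 55.2 FPKM in NSCs and 14.8 to 15.5 FPKM in STO cells (log2 fold change -1.67, SE 0.080, adjusted p = 3.1e-06 by limma). Smarcd3, named after its values were seen, had 19.0 ± 1.45 FPKM (SD, n = 2) in NSCs and 12.9 ± 0.78 FPKM (SD, n = 3) in STO cells (log2 fold change -0.53, SE 0.075, adjusted p = 0.00064 by limma). Smarcd2 had 4.26 and 3.99 FPKM in NSCs and 22.2 to 24.1 FPKM in STO cells (log2 fold change 2.23, SE 0.060, adjusted p = 1.9e-07 by limma).

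The zinc finger genes Bcl11a and Bcl11b, whose products join BAF complexes in neural and lymphoid cells, had 3.90 and 3.62 FPKM and 2.31 and 2.18 FPKM in the NSC samples and were listed at 0 in all STO samples. Both passed the test (adjusted p = 5.6e-08 and 1.3e-07 by limma). They reached the filter through NSCs alone, so their direction was set on entry. The STO values at 0 hold no spread, so these p-values do not measure one there. Pbrm1, a subunit of the PBAF form, was higher in STO cells, with 16.8 and 19.7 FPKM in NSCs and 33.6 to 36.9 FPKM in STO cells (log2 fold change 0.90, SE 0.083, adjusted p = 7.5e-05 by limma). Arid1b, an alternative to Arid1a, was also higher, with 8.34 and 9.63 FPKM in NSCs and 14.4 to 17.2 FPKM in STO cells (log2 fold change 0.78, SE 0.098, adjusted p = 0.00035 by limma). Arid1a, named after its values were seen, went the other way, with 30.4 and 32.3 FPKM in NSCs and 15.4 to 17.5 FPKM in STO cells (log2 fold change -0.87, adjusted p = 4.1e-05 by limma).

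**Figure D4:**
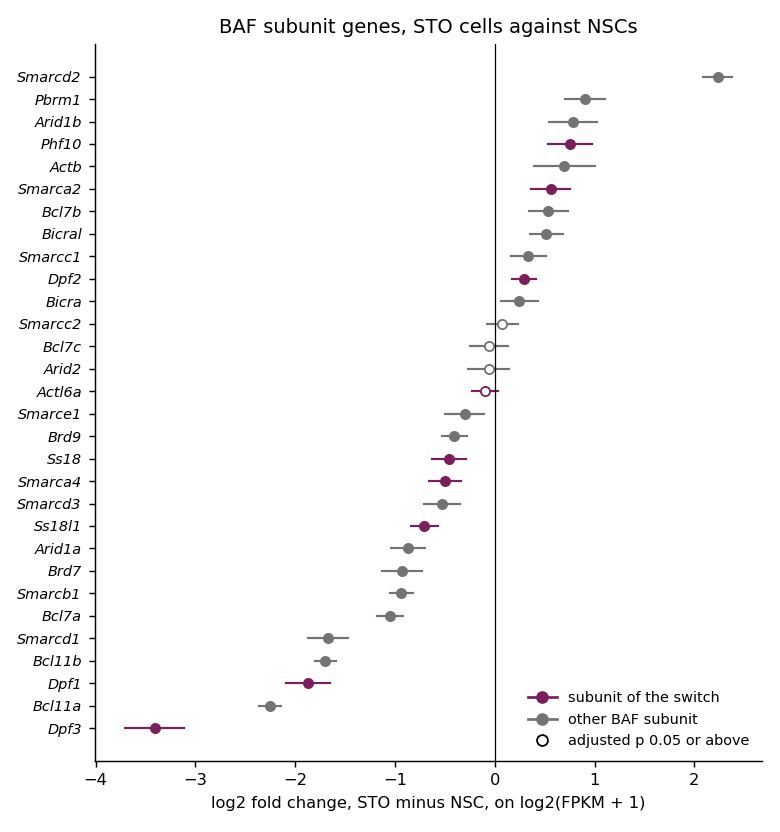
Log2 fold change of STO minus NSC on log2(FPKM + 1) (x axis), with 95% intervals from limma, for the 9 tested subunits of the switch (purple) and the 21 other BAF subunits (grey); open circles did not pass the threshold. Dpf3 and Dpf1 lie furthest to the left of the switch subunits, Smarcd2 lies furthest to the right, and the positions of Bcl11a and Bcl11b depend on the pseudocount since both are listed at 0 in STO cells.

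Several factors are known to act on the switch. REST, with its corepressors, silences neuronal genes outside neurons, and miR-9-3p (miR-9*) is known to repress Actl6a in differentiating neurons. Of 11 such genes, 6 were lower and 4 higher in STO cells and 1 did not pass the threshold, against 43.7% lower and 41.9% higher over all genes tested, so the count does not set these genes apart. Rest had 5.62 and 6.01 FPKM in NSCs and 15.8, 15.6 and 11.5 FPKM in STO cells (log2 fold change 1.15, SE 0.14, adjusted p = 0.00028 by limma). Its corepressor Rcor1 had 9.72 and 10.7 FPKM in NSCs and 23.0 to 23.7 FPKM in STO cells (log2 fold change 1.13, adjusted p = 4.2e-06), whereas the related Rcor2 had 37.3 and 35.5 FPKM in NSCs and 10.8 to 11.7 FPKM in STO cells (log2 fold change -1.62, adjusted p = 7.7e-07). Ptbp1, which represses neuronal splicing, had 91.4 and 97.7 FPKM in NSCs and 223 to 228 FPKM in STO cells (log2 fold change 1.25, adjusted p = 2.3e-06).

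The long transcripts that contain miR-9 hairpins were found in NSCs. C130071C03Rik, which spans Mir9-2, had 31.3 and 24.7 FPKM in NSCs and 0.12 to 0.24 FPKM in STO cells (log2 fold change -4.61, SE 0.11, adjusted p = 9.3e-08 by limma). Mir9-3hg had 10.8 and 12.5 FPKM in NSCs and was listed at 0 in all STO samples (adjusted p = 3.3e-08 by limma). Both hosts reached the filter through NSCs alone, so their direction was set on entry, and the STO values of Mir9-3hg hold no spread. Mature miRNAs are not measured in libraries of this kind. The mature sequence and the stretch of the Actl6a transcript that pairs with its seed are shown because Actl6a stood at 32.1 to 36.3 FPKM in both cell types while these hosts differed. Capitals mark the seed, bases 2 to 8 of the miRNA, and its reverse complement in the 3′ UTR.
mmu-miR-9-3p: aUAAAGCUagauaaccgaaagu
Actl6a 3′ UTR, chr3:32625551-32625579, plus strand, mm9: tcaacgtctgtAGCTTTAgtacactcagg
The match AGCTTTA lies at bases 38 to 44 of the 366-base Actl6a 3′ UTR and occurs once there, and none is in the 325 bases of the longest Actl6b 3′ UTR. Of the 1708 genes whose longest annotated 3′ UTR has 300 to 450 bases, 2.4% hold these 7 bases. The match describes letters in a UTR, and whether the miRNA acted on Actl6a in these cells was not tested. The miRNA is from RefSeq and is encoded by 3 hairpins, and the UTRs are those of GENCODE vM1 on NCBIM37, the assembly of mm9.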

How the data were processed

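The authors made stranded mRNA libraries from total RNA, sequenced paired ends, aligned the trimmed reads to mm9 with Hisat2 (given as version 4.8.2) and deposited FPKM values from Cufflinks 2.2.1 on RefSeq, with the bounds of their confidence intervals, for 40201 transcripts per sample. Whether strand was used in quantification was not given in the sources used here. Identifiers were matched to symbols through a RefSeq table of GRCm38.p6 (39946 transcripts, 99.4%), and FPKM values were summed over transcripts that shared a symbol and overlapped. Fragments were implied by taking the distance from a value to its upper bound as 2 standard deviations of a Poisson count; they cover counting error only. No member transcript had a failed status.

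STO cells were compared with NSCs by limma 3.58.1 in R 4.3.3 (eBayes with trend) on log2(FPKM + 1) for genes with a mean of at least 1 FPKM in either cell type, with Benjamini-Hochberg adjustment over all of them and a threshold of 0.05, tested on simulated data first. Alternatives changed the pseudocount, filter, scaling, trend, transcript choice, block or replicates. Shares within subunit sets were computed per sample, without a test. Other calculations used Python 3.11.15. The members, lists and alternatives were chosen with earlier results of these data known; in the lists of other BAF subunits and of regulators, the 3 largest rises and the 3 largest falls among called genes were named.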

Additional observations from a re-analysis of the deposited data

How the results depend on the processing

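Of 108 member tests under 12 alternatives, 105 had the same sign and the same call as reported. The exceptions were Actl6a and Ss18, whose values are given with them: Actl6a was 0.070 with samples scaled to the same sum, which moved the median of all genes from -0.023 to 0.14. Requiring a log2 fold change of at least 1 left 0 subunits higher and 2 lower in STO cells; all other alternatives gave 3 higher and 4 (1 transcript per gene), 5 or 6 lower (6 without the filter, by adding Actl6b, and without NSC replicate 1, by adding Actl6a). With 1 transcript per gene the BAF45 share was 45.8% in NSCs and 7.19% in STO cells, and the Ss18l1 share 16.3% in NSCs. The Smarca2 share was then 28.9% in NSCs and 46.6% in STO cells. It set full-length NM_011416 against 1 of several Smarca4 transcripts, so it is not a share of full-length Smarca2 in the summed ATPase level. With the deposited bounds set against each other, the BAF45 share in STO cells was 5.04% to 7.53%, the Ss18l1 share 10.9% to 14.2% in NSCs and 8.11% to 11.3% in STO cells, and the Smarca2 share 34.7% to 41.1% in STO cells, so the Ss18l1 shares of the cell types overlap within these bounds.

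Of 384 tests of the other genes, 369 had the same sign and call. Signs changed for genes that were not called: Arid2 (0.10) and Bcl7c (0.11) with samples scaled to the same sum, Smarcc2 (-0.24) and Bcl7c (0.0040) with 1 transcript per gene, and, when 1 replicate was left out, Bcl7c (-0.14 to 0.020, highest without NSC replicate 1) and Arid2 (-0.16 to 0.030, highest without NSC replicate 2). Calls were lost for Smarce1 (-0.20) and Bicra (0.16) without NSC replicate 1, Actb (0.61) without NSC replicate 2, Bicra without STO replicate 1 (0.21) or 2 (0.24), Brd9 with 1 transcript per gene (-0.16, adjusted p 0.19 by limma) and Smarce1 with samples scaled to the same sum (-0.13, adjusted p 0.17 by limma). That scaling added calls for Smarcc2 (0.25, adjusted p 0.013 by limma) and Hdac1 (0.45, adjusted p 0.0082 by limma). Without an NSC replicate, the lone sample was assumed to vary like the STO samples. Blocking on replicate number called 4994 genes as higher and 5250 as lower (5153 and 5375 without the block), and the member counts stayed at 3 and 5; deviations of same-numbered samples correlated at 0.011 and 0.060, so the numbers were not taken as pairs. The cause of these shifts was not tested. Depth limits Actl6b in both cell types and Dpf3 in STO cells.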
